A study of Homo sapiens with 12 samples.

Results

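Molecular chaperones are the proteins that fold, refold and hand over other proteins, and 39 of their genes, cytosolic and mitochondrial, are described here in human neurons depleted of ZCCHC17, a zinc knuckle protein that the title of the series ties to RNA splicing. The genes were taken by name from the table of raw counts, which holds 59653 gene symbols, and every member was found in it. They cover HSP70 (7 genes), HSP110 (2), HSP90 with its mitochondrial form (3), small heat shock proteins (3), the mitochondrial chaperonin and its lid (2), DNAJ proteins (8), BAG proteins (3), the cochaperones STIP1 and STUB1 (2), the heat shock factors HSF1 and HSF2 (2) and the cytosolic chaperonin CCT, also called TRiC (7). All 39 passed the filter on low counts. Total RNA was sequenced from neurons grown out of pluripotent cells that had been induced from IMR-90, a human lung fibroblast line, and all 12 libraries share that line. The label calls the cells neurons, while sample titles also carry the letters NPC. In 6 libraries (siNC) the cells had received a negative control siRNA, and in the other 6 (siZCC) an siRNA against ZCCHC17. A single line and a single knockdown treatment limit what the groups stand for, and the labels do not say whether replicates were separate cultures, so p-values measure only the spread between these libraries.

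HSP70 binds exposed hydrophobic stretches of unfolded proteins in a cycle driven by ATP. DNAJ proteins bring it substrates and start ATP hydrolysis, while HSP110 and BAG proteins release the nucleotide and with it the substrate. HSP90 acts later on kinases, receptors and other clients, and CCT encloses actin, tubulin and other proteins in a chamber. HSF1, held inactive in unstressed cells, binds heat shock elements in promoters and drives the inducible genes when unfolded proteins accumulate. Neurons are known for a weak heat shock response and a high dependence on constitutive chaperones such as HSPA8.

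The heat shock element was looked for in the promoters of these genes. Many members belong to heat shock protein families, so the choice of members itself favors the element, and its share is given as description only. Of the 39 members, 35 have a window in the RefSeq promoter table (GRCh38.p14; 250 bases before to 50 after a start), 47 windows in all because some genes have several. The pattern searched was 3 alternating units, GAANNTTCNNGAA, with its reverse complement TTCNNGAANNTTC, so both strands were covered. It occurred in 6 of the 47 windows (12.8%), each of a different gene, against 0.49% of all 35116 windows in the table. Members on a list of heat-inducible HSF1 targets had it in 5 of 22 windows (22.7%), the other members in 1 of 25 (4.0%). The genes were HSPA8, HSP90AA1, HSP90AB1, HSPD1, DNAJA1 and DNAJB6. No window of HSPA1A, HSPA1B, DNAJB1, HSPH1, HSPB1, BAG3 or HSPE1, all on the heat-inducible list, had the pattern. The search took exact units only, so elements with other letters are missed. The shorter pattern of 2 units, GAANNTTC or TTCNNGAA, which lies inside the longer, was in 40.4% of member windows and 13.5% of all windows. The 4 windows printed here are shown because all carry the element while the calls of their genes, described further on, were not the same: HSPA8 and HSP90AB1 were not called in siZCC against siNC, and DNAJA1 and DNAJB6 fell. The other 2 genes with the element, HSP90AA1 and HSPD1, were not called. Capitals mark the element of 3 units, and each window reads 5′ to 3′ along the gene. HSPA8 is at chr11:123062087-123062386 on the minus strand, HSP90AB1 at chr6:44247693-44247992, DNAJA1 at chr9:33025023-33025322 and DNAJB6 at chr7:157336754-157337053, the last 3 on the plus strand.
HSPA8: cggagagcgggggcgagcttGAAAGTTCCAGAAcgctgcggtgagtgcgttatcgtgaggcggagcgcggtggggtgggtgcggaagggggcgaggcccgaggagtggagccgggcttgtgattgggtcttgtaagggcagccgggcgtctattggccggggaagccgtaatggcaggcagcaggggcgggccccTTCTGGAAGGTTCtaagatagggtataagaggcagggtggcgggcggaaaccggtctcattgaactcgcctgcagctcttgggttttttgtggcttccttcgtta
HSP90AB1: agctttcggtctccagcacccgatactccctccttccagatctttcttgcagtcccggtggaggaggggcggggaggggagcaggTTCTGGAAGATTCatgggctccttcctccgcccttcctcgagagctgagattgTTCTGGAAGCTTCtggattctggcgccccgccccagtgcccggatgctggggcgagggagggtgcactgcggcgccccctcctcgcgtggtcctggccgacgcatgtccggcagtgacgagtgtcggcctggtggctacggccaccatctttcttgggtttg
DNAJA1: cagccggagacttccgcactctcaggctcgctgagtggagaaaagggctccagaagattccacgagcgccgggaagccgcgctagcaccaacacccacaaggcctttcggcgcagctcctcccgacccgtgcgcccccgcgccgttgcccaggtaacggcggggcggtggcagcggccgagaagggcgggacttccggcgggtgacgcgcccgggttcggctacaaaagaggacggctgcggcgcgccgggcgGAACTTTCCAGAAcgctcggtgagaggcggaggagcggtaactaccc
DNAJB6: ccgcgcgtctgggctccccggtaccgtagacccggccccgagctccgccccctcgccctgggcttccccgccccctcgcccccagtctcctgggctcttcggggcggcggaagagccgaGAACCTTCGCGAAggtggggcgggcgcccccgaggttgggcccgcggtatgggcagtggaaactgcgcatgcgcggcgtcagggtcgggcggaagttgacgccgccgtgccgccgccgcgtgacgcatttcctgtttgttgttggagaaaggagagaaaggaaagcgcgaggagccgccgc
A match is a description of letters, not of binding. In HSPA8 the matches begin 230 and 55 bases before the start of the printed window's transcript, and in HSP90AB1 165 and 112 bases before it. In DNAJB6 the match begins 131 bases before it, and in DNAJA1 3 bases after it. HSP90AB1 has other starts upstream, with windows at chr6:44246851-44247150 and chr6:44245944-44246243, and those windows hold no match. Its distances thus refer to the start of the printed window only.

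Total counts per library were 90755953 to 120023356 in siNC and 76115083 to 105389055 in siZCC. ZCCHC17 itself stood at 54.0 to 61.0 CPM (counts scaled to a library of 1000000 by TMM, a scaling across libraries) in siNC and fell to 9.37 to 10.6 in siZCC, as the labels have it. Markers of several cell states were present. MAP2 and DCX of the neuron list averaged 1027 and 649 CPM in siNC, and VIM and NES of the progenitor list 3550 and 1118. GFAP of the astrocyte list averaged 616 CPM there and MKI67 of the proliferation list 205. RBFOX3, a marker of mature neurons, had only 73 to 172 counts per library, and TUBB3, also of the neuron list, 1130 to 1774. Rises and falls of markers are calls at an adjusted p under 0.05 in the test described below, which called 22.2% of all genes tested. Of the 15 proliferation markers 0 rose and 12 fell, and their summed level was 1049 to 1174 CPM in siNC and 841 to 981 CPM in siZCC. Of the 14 neuron markers 1 rose and 7 fell (4008 to 4479 and 3614 to 4109 CPM), of the 10 progenitor markers 3 rose and 1 fell (6317 to 6731 and 6357 to 6911 CPM), of the 10 astrocyte markers 4 rose and 1 fell (1947 to 2165 and 2029 to 2363 CPM), and of the 9 mesenchymal markers 1 rose and 5 fell (542 to 888 and 423 to 629 CPM). Of 3 pluripotent markers tested 2 rose and 0 fell, and of 5 oligodendrocyte lineage markers tested 0 rose and 1 fell. Of 7 microglial markers, AIF1, CX3CR1, P2RY12 and TMEM119 failed the filter on low counts. The part of these shifts in the chaperone values was not tested, and in bulk RNA fewer cells of a type and less RNA per cell cannot be told apart. The libraries also split, 3 per group on each side, into those with 449 to 1512 counts of IL1B and those with 2 to 12.

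In the comparison of siZCC with siNC, which asked what loss of ZCCHC17 does to the transcripts of these neurons, the chaperone genes moved by small amounts and in both directions. Of the 39 members, 4 rose (TRAP1, HSF1, HSPA9 and DNAJB2) and 7 fell (HSPH1, DNAJA1, DNAJC7, DNAJB6, HSPA4, CCT5 and TCP1) at an adjusted p under 0.05. The test was the quasi-likelihood test of edgeR, adjusted by Benjamini-Hochberg over the 24671 genes tested, and all adjusted p-values below come from it. That is 28.2% of the members, against 22.2% of all genes tested (11.4% higher, 10.8% lower). Power grows with level, and 31.9% of the 11119 genes that averaged 10 CPM or more were called, against 31.4% of the 35 members past that floor. The share called among members was thus close to that of genes past the same floor. Such a floor does not match levels above it. The groups did not overlap in 10 members, 3 higher and 7 lower, where 9.74% of all genes (5.25% higher, 4.5% lower) and 15.1% of those at 10 CPM or more had no overlap. The members' median log2 fold change was -0.018, and that of all genes -0.0016. Called members differed by a median of 0.14 in absolute log2 fold change, and none reached the 1.5-fold mark. The median was 0.22 for all genes called and 0.16 for those called at 10 CPM or more, where all 11 called members lie. After a correction for GC content and gene length the split was 8 higher and 8 lower. CCT4, HSF2, HSP90AB1 and HSPD1 joined the rises, DNAJB1 and DNAJC5 the falls, and TCP1 was lost. Calls over all genes grew too under that correction, from 5481 to 6462 (3290 higher, 3172 lower).

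**Figure D1:**
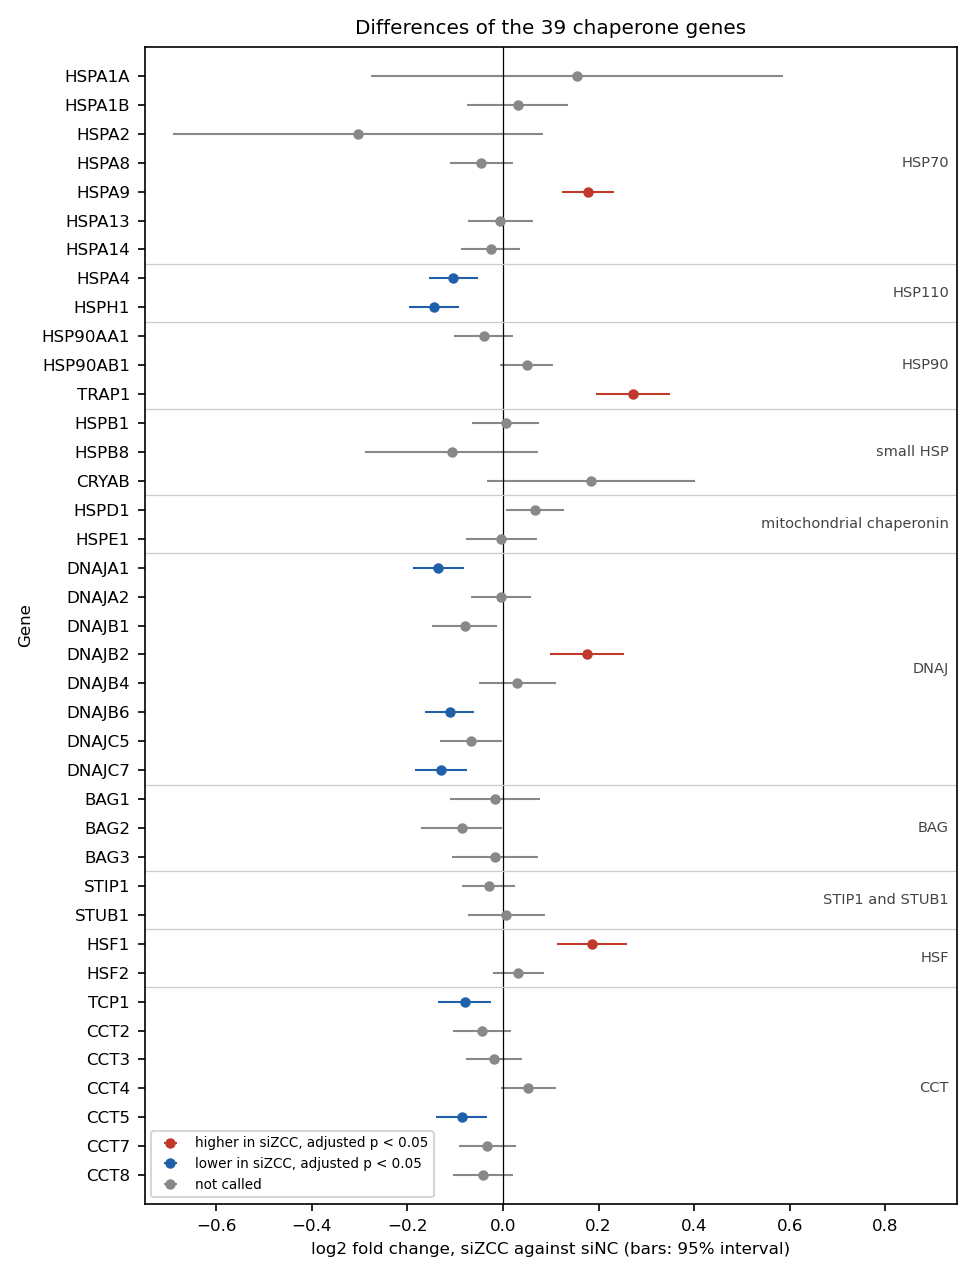
Log2 fold change of each of the 39 genes in siZCC against siNC (x axis, points) with its 95% interval (bars), grouped by family; red marks genes higher and blue genes lower at an adjusted p under 0.05, grey the rest. The 4 rises reach 0.27 in TRAP1, the 7 falls reach -0.14 in HSPH1, and the wide bars belong to HSPA1A and HSPA2, the members with the fewest counts.

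Among the transcription factors, HSF1 rose and HSF2 was not called. HSF1, the master regulator of the heat shock response, lay at 90.6 CPM in the lowest siNC library, 94.6 at the median and 99.0 in the highest, and at 99.8, 108 and 113 CPM in siZCC. Every siZCC library was thus above every siNC library, with siZCC replicate 2 only just above. The log2 fold change was 0.19 (SE 0.0347, adjusted p 0.00106), or 13.8% more transcript. HSF1 shares exonic bases with DGAT1 on the other strand, and DGAT1 was itself higher by 0.11 (SE 0.0365, adjusted p 0.0415). The strand setting of the counting is not given in the sources used here, so reads of the shared stretch cannot be told apart. HSF2, a second heat shock factor active in development, had a log2 fold change of 0.032 (95% interval -0.021 to 0.085, adjusted p 0.409).

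None of the members that HSF1 is best known for rose past the threshold. Of the 15 members on a list of heat-inducible HSF1 targets, 0 rose and 2 fell (HSPH1 and DNAJA1), with a median log2 fold change of -0.0038. That is 13.3% called, against 22.2% of all genes tested and 31.9% of those at 10 CPM or more. Rises alone made up 11.4% of all genes tested. After the correction for GC content and gene length, HSP90AB1 and HSPD1 of this list were called higher and DNAJB1 lower. Of the 11 targets on that list that are not members, 2 rose and 1 fell (27.3%). The smallest p-values were those of HSPA4L and of UBB, a polyubiquitin gene, at -0.27 (SE 0.0551, adjusted p 0.00214). HSPA1B, an inducible HSP70, ran from 27.7 to 33.0 CPM in siNC (median 31.7) and from 28.2 to 35.2 CPM in siZCC (median 32.3), and the upper end of its 95% interval (-0.076 to 0.14) is 9.96% above siNC. DNAJB1, the DNAJ partner induced with it, was at 109 to 122 CPM (median 117) in siNC and 104 to 115 CPM (median 111) in siZCC. Its log2 fold change of -0.080 had an unadjusted p of 0.0233 and an adjusted p of 0.0845, and without siNC replicate 5 the adjusted p was 0.0292. BAG3, which couples HSP70 to selective autophagy, was at 42.9 to 49.7 and 42.1 to 48.8 CPM, with an interval of -0.11 to 0.073. HSPA6, an HSP70 made almost only under stress and no member here, averaged 1.36 ± 0.122 CPM (SD, n = 6) under siNC and 1.33 ± 0.248 CPM (SD, n = 6) under siZCC (log2 fold change -0.035, adjusted p 0.865).

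**Figure D2:**
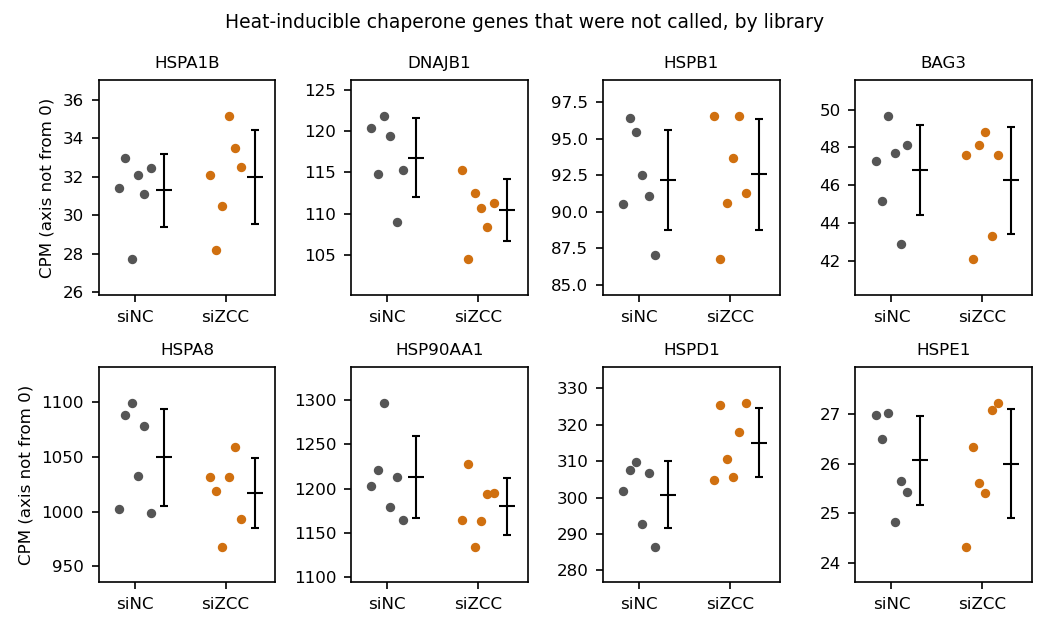
CPM (y axes, which do not start at 0) of 8 heat-inducible chaperone genes that were not called, in each of 6 siNC (grey) and 6 siZCC (orange) libraries; the dash and bars are the mean and SD. The groups overlap in each panel, with HSPD1 leaning upward and DNAJB1 downward in siZCC.

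Of the 7 HSP70 genes, 1 rose (HSPA9, described with the mitochondrial genes) and 0 fell, with a median log2 fold change of -0.0053. That is 14.3%, against 22.2% of all genes tested. HSPA8, the constitutive HSP70 that neurons use for folding and for uncoating clathrin vesicles, was at 999 to 1099 CPM in siNC (median 1055) and 968 to 1059 CPM in siZCC (median 1025). The groups overlapped, the log2 fold change was -0.046 (95% interval -0.11 to 0.020) and the adjusted p 0.328. HSPA13, an HSP70 of microsomes rather than of the cytosol, and HSPA14, which sits at ribosomes, had log2 fold changes of -0.0053 and -0.026. HSPA14 stands for 2 overlapping gene entries in GENCODE v29, so its count may mix them. HSPA2, best known from the testis, was near the filter at 14 to 40 counts per library, and its 95% interval ran from -0.69 to 0.083.

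HSPA1A and HSPA1B lie beside each other on chromosome 6 (31815464 to 31817946 and 31827735 to 31830255, plus strand, GENCODE v29 on GRCh38). Of the 100-base windows of the HSPA1A transcript, 69.9% also occur letter for letter in HSPA1B, and 0% in HSPA8 or HSPA2. How reads that fit both genes were counted is not given in the sources used here, so the division of 1.32 CPM for HSPA1A against 31.3 CPM for HSPA1B in siNC is uncertain. Added together, the pair gave 32.6 ± 1.60 CPM (SD, n = 6) for siNC and 33.4 ± 2.1 CPM (SD, n = 6) for siZCC, a difference of 0.834 CPM within the spread of either group (exact permutation test, two-sided, p = 0.448).

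Among the nucleotide exchange factors of HSP70, both HSP110 members fell, and none of the 3 BAG genes was called. Over all genes tested 22.2% were called and 10.8% fell. Whether the families differ was not tested. HSPH1 (also known as HSP105), which works with HSP70 and DNAJ proteins to take aggregates apart, was at 136 CPM in the lowest siNC library, 139 at the median and 141 in the highest, and at 123, 124 and 129.7 CPM in siZCC. The ranges were apart by more than the width of the siNC range, and HSPH1 fell by 9.49% (log2 fold change -0.14, SE 0.0246, adjusted p 5.41e-04). HSPA4 went from 243 to 252 CPM (median 249) in siNC to 223 to 238 CPM (median 231) in siZCC, again with no overlap (-0.10, SE 0.0247, adjusted p 0.00628). Another HSP110 gene, HSPA4L, is no member but stands on 2 of the gene lists used here, and it went the other way. HSPA4L lay at 44.8 to 53.5 CPM in siNC and at 54.4 to 65.0 CPM in siZCC, and rose by 0.25 (SE 0.0541, adjusted p 0.00298). BAG1 and BAG3 each had a log2 fold change of -0.017, and BAG2, an inhibitor of the ubiquitin ligase STUB1, had -0.087 (adjusted p 0.133).

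Of the 8 DNAJ genes, the largest family here, 1 rose and 3 fell (50%, against 22.2% of all genes and 31.9% of those at 10 CPM or more), with a median log2 fold change of -0.074. DNAJA1, the most abundant of them and a general cytosolic partner of HSPA8, was at 339 to 359 CPM in siNC (median 343) and 303 to 325 CPM in siZCC (median 314), without overlap. Its log2 fold change was -0.14 (SE 0.0253, adjusted p 0.00111), and 6 GENCODE pseudogenes carry its name, so single reads may be shared with them. DNAJC7, which binds HSP70 and HSP90 through tetratricopeptide repeats, went from 94.0 to 100.6 CPM to 85.8 to 90.3 CPM, and its log2 fold change was -0.13 (SE 0.0257, adjusted p 0.00176). DNAJB6, known for keeping polyglutamine proteins from aggregating, went from 115 to 119 CPM to 105 to 111 CPM (-0.11, SE 0.0244, adjusted p 0.00349). In all 3 genes the highest siZCC library was below the lowest siNC library. DNAJC7 shares exonic bases with CNP and NKIRAS2 on the other strand, whose log2 fold changes were -0.0062 (adjusted p 0.912) and 0.024 (adjusted p 0.642).

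DNAJB2, a neuronal DNAJ that passes misfolded clients to the proteasome, was the only member of its family called in the other direction. It was at 143 to 163 CPM (median 152) in siNC and 158 to 182 CPM (median 174) in siZCC. Its log2 fold change was 0.18 (SE 0.0369, adjusted p 0.00257), and it is the only called member whose groups overlapped, because siZCC replicate 2 stood at 158.05 CPM, below siNC replicates 2 and 4. DNAJC5, the cysteine string protein of synaptic vesicles, was at 232 to 248 CPM in siNC and 219 to 243 CPM in siZCC (-0.067, 95% interval -0.13 to -0.0013, adjusted p 0.138). DNAJA2 and DNAJB4, both general HSP70 partners, had log2 fold changes of -0.0034 and 0.030.

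**Figure D3:**
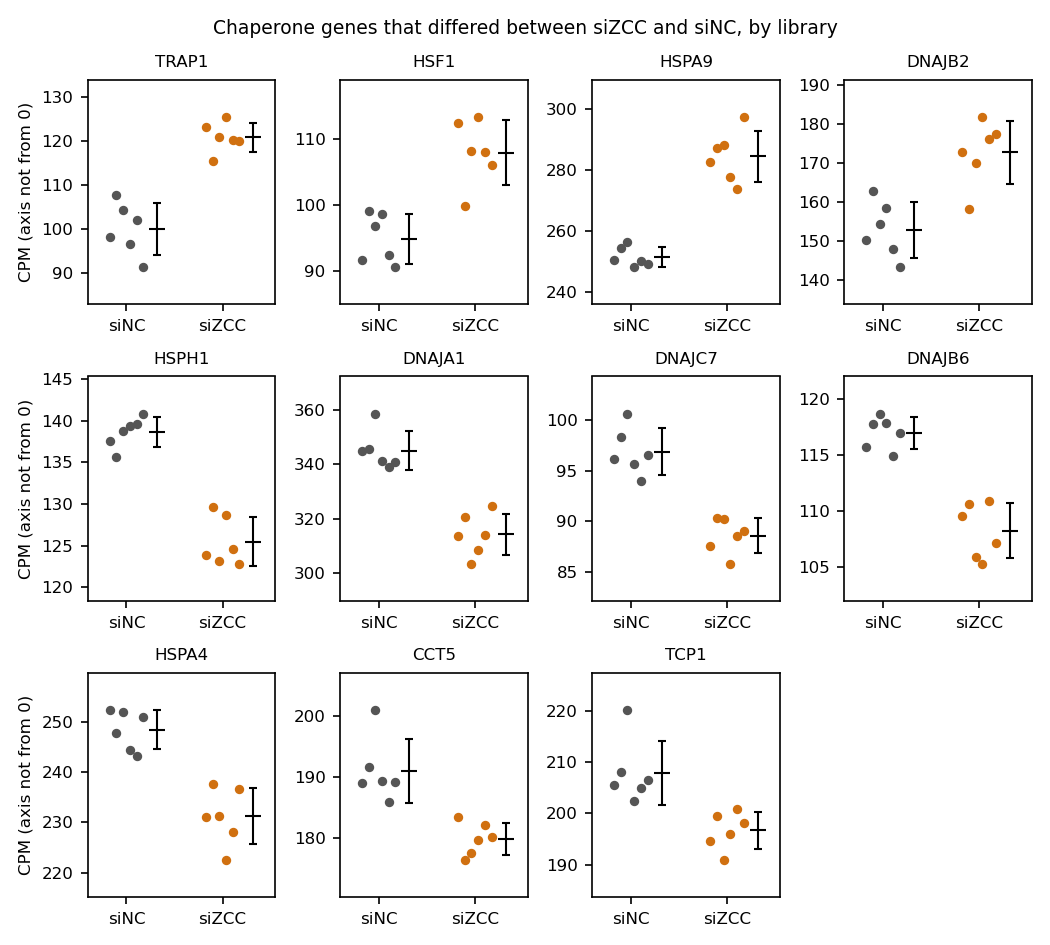
CPM (y axes, which do not start at 0) of the 11 called chaperone genes in each of 6 siNC (grey) and 6 siZCC (orange) libraries; the dash and bars are the mean and SD. The groups are apart in each panel except that of DNAJB2, and siNC replicate 3 is the high grey point of CCT5, TCP1 and DNAJA1.

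The cytosolic HSP90 genes HSP90AA1 and HSP90AB1 were not called, nor were STIP1 and STUB1. HSP90AA1, the inducible form, was at 1165 to 1297 CPM in siNC (median 1208) and 1135 to 1227 CPM in siZCC (median 1179), with a 95% interval of -0.10 to 0.021 on the log2 scale. HSP90AB1, the constitutive form, was at 933 to 1016 CPM (median 983) and 985 to 1037 CPM (median 1012), with an interval of -0.0066 to 0.10 and an adjusted p of 0.202. STIP1, the adaptor that joins HSP70 to HSP90, had -0.030 (interval -0.085 to 0.026). STUB1, the ubiquitin ligase CHIP that marks chaperone clients for degradation, had 0.0072 (interval -0.074 to 0.088). The small heat shock proteins, which hold unfolded proteins without ATP, gave 0 calls of 3, where 22.2% of all genes tested were called. HSPB1 was at 87.0 to 96.4 CPM in siNC and 86.7 to 96.6 CPM in siZCC (interval -0.064 to 0.076). CRYAB, alpha B crystallin, which astrocytes express strongly, was at 7.58 to 10.2 and 8.08 to 13.1 CPM, so its interval of -0.034 to 0.40 is wide, and HSPB8, a partner of BAG3, was at 2.63 to 4.10 CPM over all libraries.

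The CCT chaperonin is a double ring with a fixed place for each subunit. Of the 7 subunit genes measured as members, 0 rose and 2 fell. That is 28.6%, against 22.2% of all genes and 31.9% of those at 10 CPM or more. In 6 of 7 the log2 fold change was negative, as in 12422 of the 24671 genes tested, with a median of -0.042. CCT5 was at 186 to 201 CPM in siNC (median 189) and 176 to 183 CPM in siZCC (median 179.8; -0.087, SE 0.0253, adjusted p 0.0209). TCP1 was at 202 to 220.05 CPM in siNC (median 206) and 191 to 201 CPM in siZCC (median 197; -0.080, SE 0.0264, adjusted p 0.0375). The other 5 ran from -0.044 in CCT2 to 0.053 in CCT4. Outside the members stand the subunit gene CCT6A, at -0.037 (SE 0.0245, adjusted p 0.303), and its paralog CCT6B, at a much lower level, which rose. CCT6B was at 4.25 to 4.94 CPM in siNC and 4.72 to 5.67 CPM in siZCC, so the groups overlapped (0.19, SE 0.0620, adjusted p 0.0340). Its call was lost without a filter on low counts (adjusted p 0.0699) and in 7 of the 12 fits that left out 1 library (siNC replicates 2, 4, 5 and 6, siZCC replicates 1, 3 and 6), with adjusted p up to 0.0890. Library siNC replicate 3 was the highest of its group in all 7 genes, and without it CCT5 had -0.072 and TCP1 -0.063, the latter with an adjusted p of 0.0695. TCP1 lost its call in 7 of the 12 fits that left out 1 library (siNC replicates 1, 2, 3 and 6, siZCC replicates 1, 3 and 4), with adjusted p up to 0.0719, and also without a filter on low counts (0.0761) and with offsets for GC and length (0.0631). TCP1 shares exonic bases with ACAT2 on the other strand, which was lower by 0.23 (log2 fold change -0.23, SE 0.0358, adjusted p 2.56e-04).

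CCT6A and CCT6B belong to a list of 15 further TRiC and prefoldin genes, most of which encode factors that bring substrates to CCT or help it. Of the 14 tested, 2 rose, CCT6B among them, and 3 fell, with a median of -0.036. That is 35.7%, against 22.2% of all genes and 31.9% of those at 10 CPM or more. TXNDC9, which regulates CCT, went from 22.7 ± 1.11 CPM (SD, n = 6) to 19.3 ± 0.750 CPM (SD, n = 6) with siZCC, without overlap (-0.24, SE 0.0387, adjusted p 3.70e-04). PDCL3, a phosducin-like partner of CCT, had -0.17 (SE 0.0465, adjusted p 0.0170).

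In the mitochondrial matrix the HSP70 and HSP90 forms rose and the chaperonin was not called. TRAP1, the mitochondrial HSP90, had the largest difference of all called members. It lay at 91.4 CPM in the lowest siNC library, 100.05 at the median and 108 in the highest, and at 115, 120.5 and 125 CPM in siZCC, so the groups were well apart. TRAP1 was 20.8% higher (log2 fold change 0.27, SE 0.0364, 95% interval 0.20 to 0.35, adjusted p 6.39e-05). DNASE1, which shares exonic bases with TRAP1 on the other strand, had 0.0072 (SE 0.0295, adjusted p 0.896). HSPA9, or mortalin, the matrix HSP70 that pulls proteins in through the inner membrane, was at 248 to 256 CPM in siNC (median 250.1) and 274 to 297 CPM in siZCC (median 285). The gap between the groups exceeded the range of siNC, and the log2 fold change was 0.18 (SE 0.0255, 95% interval 0.12 to 0.23, adjusted p 1.20e-04). Among the called members HSPA9 and DNAJB6 had the smallest spread in siNC, with coefficients of variation of 1.28% and 1.22%.

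HSPD1 (HSP60) and HSPE1 (HSP10), the barrel and lid of the matrix chaperonin, are transcribed in opposite directions from a shared region of chromosome 2, and their annotated exons overlap. HSPD1 was at 287 to 309.8 CPM in siNC (median 304) and 305 to 326 CPM in siZCC (median 314), with a log2 fold change of 0.067, an unadjusted p of 0.0318 and an adjusted p of 0.106. HSPE1 was at 24.8 to 27.0 and 24.3 to 27.2 CPM, with -0.0038 (95% interval -0.078 to 0.070). GENCODE v29 names 17 pseudogenes after HSPD1, 17 after HSPA8 and 26 after HSPE1, so these 3 values depend on how ambiguous reads were treated. HSPE1 also shares exonic bases with HSPE1-MOB4 on its own strand, and the treatment of reads that fit both is not given either. Of 18 other mitochondrial chaperones and proteases, 3 rose and 1 fell, with a median of -0.022. That is 22.2% called, the same as the share of all genes tested. Of the 18 log2 fold changes 10 were negative, and they ran from -0.16 to 0.22. LONP1, the main protease of the matrix, was at 114 to 128 CPM in siNC and 136 to 146 CPM in siZCC (0.22, SE 0.0304, adjusted p 1.07e-04), and CLPB, a disaggregase of the intermembrane space, rose by 0.14 (SE 0.0275, adjusted p 0.00127), from 58.5 to 63.7 CPM to 65.4 to 68.5 CPM. A test of mitochondrial against cytosolic members was not made.

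The rest of the chaperone network was described through gene lists. Of the 96 listed chaperone genes that are not members, 92 were tested. Among these 11 rose and 11 fell, 23.9% in all against 22.2% of all genes tested, with a median of -0.018. Of 40 tested cytosolic chaperones and cochaperones, 3 rose and 3 fell (15%). The smallest p was in TOMM34, which carries precursors to mitochondria (0.13, SE 0.0277, adjusted p 0.00230), and in HSPA4L. Of 16 chaperones of the endoplasmic reticulum, 2 rose and 3 fell (31.2%, median -0.022). HSP90B1, the HSP90 of that compartment, fell by 0.14 on the log2 scale (log2 fold change -0.14, SE 0.0333, adjusted p 0.00739), and PDIA3, a disulfide isomerase, had -0.12 (SE 0.0327, adjusted p 0.0163).

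Levels can be set side by side only per length. Per kilobase of annotated exon, HSP90AB1 (328 CPM), HSP90AA1 (231) and HSPA8 (216) led in siNC, followed by DNAJA1 at 126 CPM per kilobase. Divided by the longest coding transcript instead, the same 3 genes led at 366, 346 and 426 CPM per kilobase, so their order among themselves depends on the length used, and DNAJA1 came next at 145. The 7 CCT genes lay between 32.7 and 71.5 CPM per kilobase of exon. At the other end HSPA1A (0.530) and HSPA2 (0.0529) were below every other member, while HSPA1B stood at 12.4 CPM per kilobase. In siZCC these 4 genes led too, HSP90AB1 at 339.7 and DNAJA1 at 115 CPM per kilobase.

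**Figure D4:**
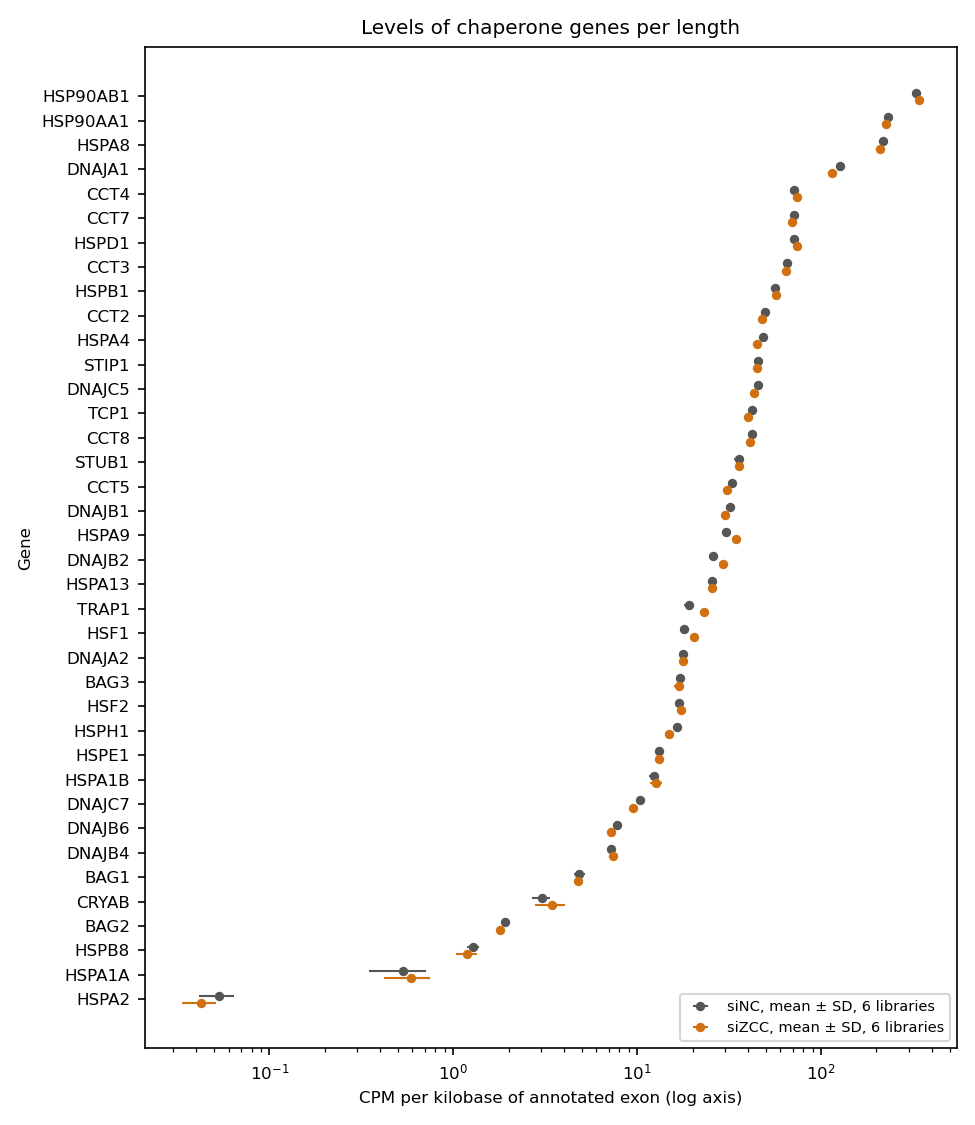
CPM per kilobase of annotated exon (x axis, log scale) of the members, mean and SD over 6 siNC (grey) and 6 siZCC (orange) libraries, in order of the siNC level; HSPA14 is left out because its symbol has more than 1 gene entry. HSP90AB1, HSP90AA1 and HSPA8 stand above 200 CPM per kilobase, and HSPA1A and HSPA2 below 1.

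Within the libraries of high IL1B, 3 against 3, 6 members were called (3 higher, 3 lower), beside 2043 genes in all. Within those of low IL1B, 3 members were called (2 higher, 1 lower), beside 1602 genes in all. With all 12 libraries the counts were 11 and 5481. The split came from the data and not from the labels. All 11 members called over the 12 libraries kept their sign on both sides, though they were chosen on these same libraries. TRAP1 had 0.28 and 0.26, HSPH1 -0.14 and -0.15, and HSPA9 0.13 and 0.22 in the high and the low libraries. HSPA4 had -0.14 and -0.069, and DNAJC7 -0.18 and -0.085; whether the sides differ was not tested.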

How the data were processed

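The authors deposited whole-number read counts per gene symbol for 12 libraries. Per the submitters' processing notes the build was GRCh38 and the tools were bcl2fastq 2.17, STAR 2.7.6a and featureCounts 2.0.1; annotation, strand setting and treatment of multi-mapping reads are not given in the sources used here. Libraries used a directional kit on total RNA, per the labels' protocols. No value column was left unused. Groups and replicate numbers came from sample titles.

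Genes were kept by filterByExpr (about 0.0997 CPM). Counts were scaled by TMM and compared by the quasi-likelihood test in edgeR 4.0.16 (R 4.3.3), ~ group, with Benjamini-Hochberg adjustment over 24671 genes and a threshold of 0.05. SE is the log2 fold change over the square root of F; 95% intervals use its t distribution. The biological coefficient of variation was 6.55%. The script was tested on simulated data. Within-group pairs of libraries gave a chi-square per degree of freedom of 5.17 to 25.9, so none was a copy.

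Gene lengths, positions and GC content came from GENCODE 29 (GRCh38). Alternatives used limma 3.58.1, DESeq2 1.42.0 and sva 3.50.0. Members and lists were chosen with earlier results of these data known. The text names ZCCHC17, all members and the 2 smallest p-values among calls in each list; CCT6A, CCT6B, HSPA6, IL1B, the overlapping antisense genes and the markers cited were named besides.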

Additional observations from a re-analysis of the deposited data

Results flagged for a closer look

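In 82 groups of 6 libraries (the library totals, ZCCHC17 and the 39 members, in each treatment), 8 had a library whose distance to the next, as a share of the span of its group (called the gap here), passed Dixon's 95% critical value. Chance gives about 4.1. The total of siNC replicate 4 was the lowest of its group, with a gap of 0.657. The library siNC replicate 3 accounted for 4 of the 8. It was the lowest of its group for HSPA1B (27.7 CPM, gap 0.660) and the highest for DNAJA1 (359 CPM, gap 0.645), TCP1 (220.05 CPM, gap 0.672) and CCT8 (153 CPM, gap 0.778). The others were HSPA14, highest in siZCC replicate 2 (46.7 CPM, gap 0.701), BAG2, highest in siNC replicate 1 (13.65 CPM, gap 0.689), and HSF2, lowest in siNC replicate 4 (44.1 CPM, gap 0.683).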

How the results depend on the processing

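The count of 11 called members was 9 to 16 under the 10 alternatives planned for it and 10 to 12 when each library was left out. In the 110 values of called members under those 10 alternatives, 4 lost the call (TCP1 without a filter on low counts, under the block and after the GC and length correction, and CCT5 under the block) and none changed sign. Of the members not called, 6 passed with offsets for GC and length, and DNAJB1 passed without siNC replicate 5. HSPA2 has no value with a mean count of at least 50. The 9 genes outside the members that the naming rule gives kept call and sign in all 10 alternatives and without any single library. The count over the other chaperone lists was 16 to 28 under the 10 alternatives and 16 to 24 without single libraries; over all genes it was 4785 to 6462 and 4484 to 5626.

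The labels do not say that replicate numbers pair libraries. Same-numbered libraries had correlations of -0.077 to 0.018, and 0 of 6 siNC libraries correlated best with its own number. That check looks for likeness only. By IL1B, same-numbered libraries lay on opposite sides. In replicates 1, 4 and 5 siNC was low and siZCC high, and in replicates 2, 3 and 6 the reverse. The reason is not in the labels and was not tested. A replicate block gave calls for 4902 genes, 9 members and 16 genes of the other lists, with adjusted p of 0.0956 for TCP1, 0.0651 for CCT5 and 0.0502 for CCT6B.

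Fits on 1 side of the IL1B split, added after seeing the data, hold 3 libraries per group, and fewer samples give fewer calls: 2043 genes, 6 members and 8 other listed genes with high IL1B, and 1602, 3 and 4 with low IL1B. Members not called changed sign there: HSPA1A (-0.13), CRYAB (-0.012), DNAJB4 (-0.011) and BAG1 (0.0083) with high IL1B, and HSPA1B (-0.053), HSPA13 (0.0057), HSPB1 (-0.030), HSPE1 (0.031), DNAJA2 (0.024), STUB1 (-0.0043), CCT2 (0.0058) and CCT8 (0.0038) with low IL1B. After the GC and length correction HSPA13 (0.025), HSPB1 (-0.037), HSPE1 (0.016), DNAJA2 (0.018) and STUB1 (-0.032) changed sign, and under upper quartile scaling HSPB1 (-0.0025) and STUB1 (-0.0013) did; the cause was not tested. Without single libraries the log2 fold change ran from -0.0022 to 0.065 in HSPA1B, -0.022 to 0.0093 in HSPA13, -0.0097 to 0.024 in HSPB1, -0.022 to 0.011 in HSPE1, -0.016 to 0.013 in DNAJA2, -0.047 to 0.011 in BAG1, -0.041 to 0.0091 in BAG3 and -0.014 to 0.031 in STUB1.

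HSPA2 had the lowest depth, with 14 to 40 counts per library. HSPA1A had 77 to 223 counts and a coefficient of variation of 34.6% in siNC and 28.1% in siZCC, with siNC replicates 1 and 3 at 1.92 and 1.88 CPM and the other siNC libraries at 0.983 to 1.09.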
